A study of Homo sapiens with 6 samples.

Results

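The genes examined here are serum response factor (SRF) and 9 of its actin cytoskeleton targets, ACTA2, TAGLN, CNN1, CNN2, MYL9, TPM1, TPM2, VCL and FLNA, chosen by symbol as a functional group. The choice was made with earlier results of these data known. All 10 were found among the 28008 gene symbols of the count table. The libraries came from H660 (NCI-H660) cells, an androgen receptor-negative neuroendocrine prostate cancer (NEPC) line, in which a short hairpin RNA (shRNA) to MUC1 was expressed from the inducible vector pLKO-tet-puro. All cells were transduced and selected in puromycin. The DOX-negative cells (3 libraries) received 0.1% DMSO as vehicle, and the DOX-positive cells (3 libraries) received doxycycline (DOX) at 500 ng/ml, which switches on the shRNA. The exposure lasted about a week. The sources do not say whether the cells were a clone or a pool, and the labels and the methods differ on the serum in the medium. DOX with a control shRNA was not analysed here, so the DOX itself and the loss of MUC1 cannot be told apart. Nor do the sources name separate experiments behind the triplicate cultures, so the p-values measure only the spread between these libraries.

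SRF is a transcription factor that binds the CArG box, a short DNA element found in genes of the contractile apparatus and in immediate early genes. It works with partners of 2 kinds. The myocardin-related factors MRTFA and MRTFB are held by unpolymerized actin monomers and reach SRF when actin is driven into filaments, and they turn on genes of the cytoskeleton. The ternary complex factors ELK1, ELK3 and ELK4 respond to ERK and turn on genes such as FOS and EGR1. SRF is also a target of itself. Cells of smooth muscle and activated fibroblasts are known for high levels of ACTA2, TAGLN and CNN1, whereas VCL, FLNA and CNN2 are found in most adherent cells.

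RefSeq promoter windows of 300 bases (250 before and 50 after each start, build GRCh38.p14) were matched for 8 of the 10 genes. A CArG box, searched for in its exact form of 10 letters, which reads alike on both strands, was in the windows of 3 of these: SRF, CNN2 and FLNA. Of all 35116 windows, 1.29% held one, a share by window and not by gene. Counted by gene, 191 of the 12026 tested genes with a window held one. The stretches before the start that carry the boxes are printed 5′ to 3′, with each box in capitals, for these 3 genes and for FHL2 and EGR1, related SRF targets whose transcripts changed in opposite directions (given with their values after the 10 genes). They lie on the plus strand for SRF, CNN2 and EGR1 and on the minus strand for FLNA and FHL2, at chr6:43171214-43171268 (SRF), chr19:1026494-1026553 (CNN2), chrX:154374694-154374753 (FLNA), chr2:105438580-105438639 and chr2:105399076-105399135 (FHL2, upstream and downstream) and chr5:138465349-138465430 (EGR1).
SRF: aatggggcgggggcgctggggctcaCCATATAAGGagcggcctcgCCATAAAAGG
CNN2: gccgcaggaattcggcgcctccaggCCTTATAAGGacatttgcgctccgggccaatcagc
FLNA: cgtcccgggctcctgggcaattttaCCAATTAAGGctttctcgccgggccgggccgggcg
FHL2, upstream promoter: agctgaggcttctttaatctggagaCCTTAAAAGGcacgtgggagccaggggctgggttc
FHL2, downstream promoter: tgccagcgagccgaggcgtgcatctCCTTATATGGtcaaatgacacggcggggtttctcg
EGR1: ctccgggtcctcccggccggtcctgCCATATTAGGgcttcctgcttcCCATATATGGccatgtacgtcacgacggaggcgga
SRF and EGR1 each held 2 boxes in 1 window, and a further SRF window held none. FHL2 has 4 windows, of which 2 overlapping ones share the upstream stretch, 1 holds the downstream stretch and 1 held no box. The windows of ACTA2, CNN1, the tropomyosin genes TPM1 and TPM2, and VCL did not hold these exact letters.

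Total counts were between 47620696 and 74061121 per library. MUC1 (the target of the shRNA) averaged 86.0 ± 5.65 CPM (counts-per-million values scaled by edgeR's TMM factors) in DOX-negative and 34.6 ± 4.08 CPM in DOX-positive cells (SD, n = 3), and its log2 fold change was -1.32 (SE 0.096, adjusted p = 0.00017). The neuroendocrine and epithelial markers CHGA, SYP, EPCAM and KRT8 were present in every library, at no less than 76.5 CPM. The summed level of 8 such markers was 602 to 833 TPM without DOX and 689 to 929 TPM with DOX, where TPM is a per-million transcript abundance that divides counts by gene length and is not to be confused with the tropomyosin genes. Of these 8, NCAM1 (-0.50, adjusted p = 0.014) and INSM1 (-0.45, adjusted p = 0.039) were called lower by edgeR (25%, beside 1.96% of all tested genes). Of the smooth muscle markers, KCNMB1 had 0 counts in every library, CASQ2 had 0 to 2, DES 0 to 6 and MYH11 3 to 16. The other 5 were counted in these cells, with means of 2837 counts for MYLK, 1100 for SMTN, 998.5 for SYNM, 223 for LMOD1 and 46.8 for SYNPO2. None of the 5 was called by edgeR, beside 2.91% of all tested genes called higher and 1.96% lower. An unadjusted p under 0.05 was found for 2 (40%), beside 21.1% of all tested genes. All DOX-positive libraries were lower for LMOD1 (-0.54, adjusted p = 0.088), SMTN (-0.16) and MYLK (-0.072) and higher for SYNPO2 (0.43) and SYNM (0.21). These shares were 60% below and 40% above, beside 13.3% and 14.8% of all tested genes. Of the fibroblast markers, COL3A1, THY1 and POSTN had 0 counts in every library, and DCN, PDGFRB and FAP had at most 2. PDGFRA had 3 to 9, and the others were counted, with means of 896 counts for COL1A2, 656 for COL1A1 and 121 for LUM. The summed levels of these lists (in TPM) overlapped between the groups. They were 6.27 to 8.17 without DOX and 6.04 to 8.74 with DOX for the 9 smooth muscle markers. For the 10 fibroblast markers they were 2.41 to 3.48 and 2.46 to 3.65. In these TPM values, protein-coding genes took 16.1% to 23.9% of the total, depending on the library. The sum of the 10 genes examined here overlapped as well, at 89.9 to 125 TPM without DOX and 113 to 150 TPM with DOX. Of the 3 tested fibroblast markers, COL1A1 (0.60, adjusted p = 0.019) and LUM (1.06, adjusted p = 0.030) were called higher (66.7%, beside 2.91% of all tested genes). COL1A2 was at -0.71 (adjusted p = 0.20). The part of the smooth muscle and fibroblast markers in the results that follow was not tested. In bulk RNA, fewer cells of a type and less RNA per cell cannot be told apart.

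On the scale of levels per gene length, the cytoskeletal genes of most adherent cells were the most abundant. FLNA (filamin A, which cross-links actin filaments) led with a mean of 54.1 TPM over the 6 libraries (range 40.5 to 64.1), followed by VCL (vinculin, the adapter between integrin adhesions and actin) at 26.1 TPM (19.6 to 33.1) and CNN2 (calponin 2, an actin-binding protein) at 23.1 TPM (15.7 to 28.1). SRF itself was at 7.80 TPM (5.71 to 10.1), and TPM1 (tropomyosin 1, which winds along the filament) at 6.59 (5.26 to 8.20). MYL9, a regulatory light chain of myosin II, was at 3.38 TPM (1.89 to 4.59), and TPM2 at 0.967 (0.791 to 1.21). The genes typical of smooth muscle stood lowest: TAGLN (transgelin) at 0.300 TPM (0.242 to 0.367), ACTA2 (smooth muscle actin) at 0.152 (0.076 to 0.255) and CNN1 (calponin 1) at 0.050 (0.027 to 0.080). This order was the same within each of the 6 libraries. Of neighbors in the order, VCL and CNN2, SRF and TPM1, TAGLN and ACTA2, and ACTA2 and CNN1 had ranges over the libraries that overlapped.

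With DOX, SRF and most of its cytoskeletal targets were measured at higher levels, and SRF was the member that passed the test. SRF rose 1.26-fold. ACTA2, MYL9, CNN2 and VCL were 1.17 to 1.81 times as high with DOX, with all DOX-positive libraries above all DOX-negative libraries, but did not pass the adjusted threshold. TAGLN, TPM2 and FLNA showed no such separation, and TPM1 separated with a log2 fold change of 0.13 (adjusted p = 0.37). Counts were tested with edgeR's quasi-likelihood method over 17026 genes, and a gene was called at a Benjamini-Hochberg adjusted p under 0.05. All 10 genes passed the filter on low counts, CNN1 through its DOX-positive libraries alone, so that CNN1 is left out of the following counts. Of the other 9, 1 was called higher and 0 lower, beside 2.91% and 1.96% of all tested genes, and 5 (55.6%) had an unadjusted p under 0.05, beside 21.1% of all tested genes. The groups did not overlap for 6 of the 9, each time with DOX-positive above, beside 14.8% of all tested genes above and 13.3% below. Their median log2 fold change was 0.23, beside 0.00034 over all tested genes. Because the genes were chosen with earlier results of these data known, these shares are a description and not a test.

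**Figure D1:**
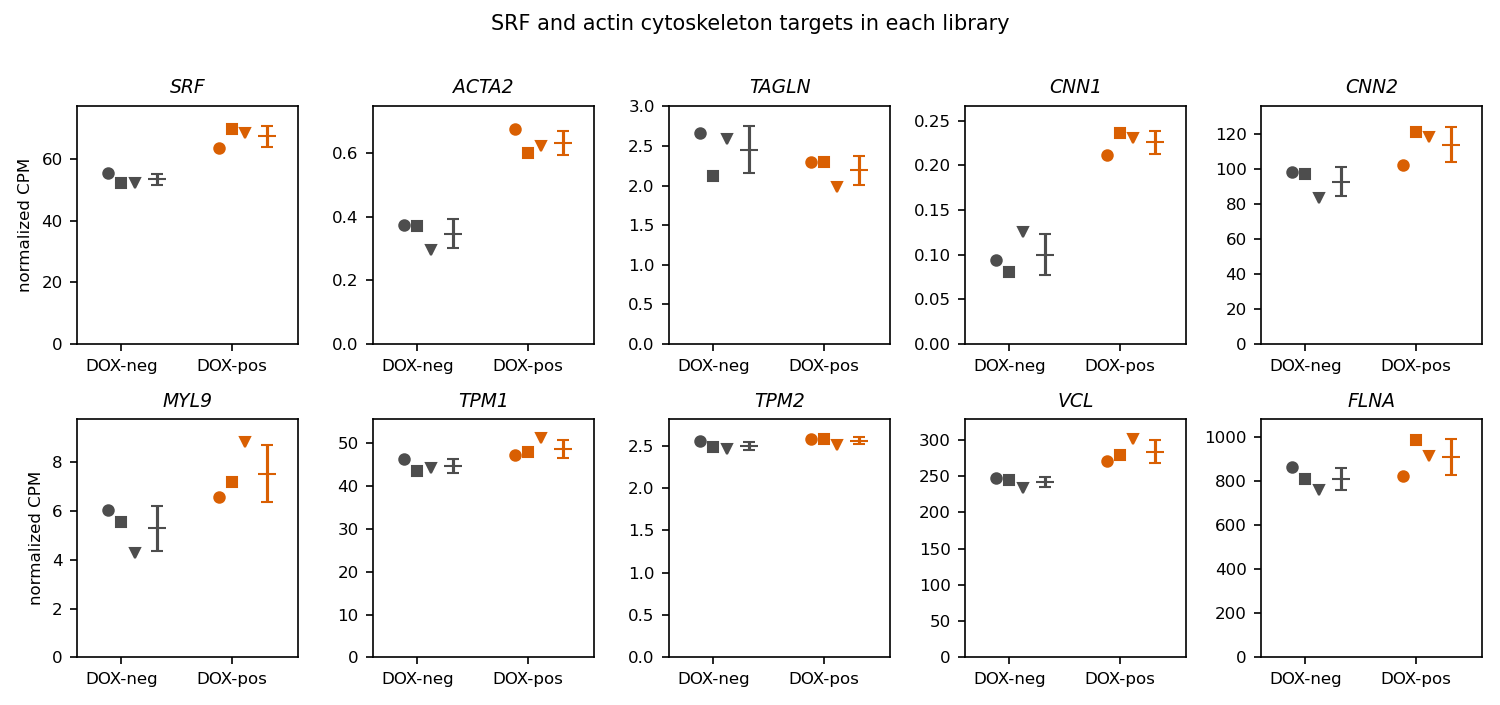
Normalized counts-per-million values (CPM, y axis from 0) of the 10 genes in each library of the DOX-negative (gray) and DOX-positive (orange) groups. Circles, squares and triangles are replicates 1, 2 and 3, and bars show the mean ± SD (n = 3). The groups separate for SRF, ACTA2, CNN1, CNN2, MYL9, TPM1 and VCL and overlap for TAGLN, TPM2 and FLNA.

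SRF (chr6:43171269-43181506) had 55.7, 52.3 and 52.4 CPM in DOX-negative replicates 1, 2 and 3 and 63.6, 69.9 and 68.6 CPM in DOX-positive replicates 1, 2 and 3. The lowest DOX-positive library stood above the highest DOX-negative one. The means were 53.5 ± 1.91 and 67.4 ± 3.32 CPM (SD, n = 3), and the log2 fold change was 0.33 (SE 0.074, adjusted p = 0.027). The change was between 0.31 and 0.375 in all alternatives. The call was lost without DOX-negative replicate 1 (0.365, adjusted p = 0.053), replicate 2 (0.32, adjusted p = 0.15) or replicate 3 (0.315, adjusted p = 0.14) and without DOX-positive replicate 3 (0.32, adjusted p = 0.068), and the adjusted p lay between 0.0029 and 1 across alternatives.

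The abundant targets moved by smaller amounts. VCL (chr10:73998116-74121363) had 247, 244 and 234 CPM without DOX and 271, 279 and 301 CPM with DOX. All 3 DOX-positive libraries were higher, and the log2 fold change was 0.23 (SE 0.071, adjusted p = 0.086). VCL overlaps AP3M1, which had a mean of 8414 counts, and the strand setting of the counting is not given in the sources used here. CNN2 (chr19:1026608-1039065) had 97.9, 96.9 and 83.4 CPM without DOX and 102, 121 and 118 CPM with DOX. The groups were separate by a narrow margin between DOX-negative replicate 1 and DOX-positive replicate 1. Its log2 fold change was 0.295 (SE 0.090, adjusted p = 0.081), and it was called without DOX-positive replicate 1 (0.37, adjusted p = 0.043) and with DESeq2 (0.29, adjusted p = 0.046). The adjusted p lay between 0.043 and 1 across alternatives. RefSeq lists 11 pseudogenes of CNN2, so its counts carry that uncertainty.

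FLNA (chrX:154348531-154374634) was the most deeply counted of the 10 genes, with a mean of 54130 counts per library. It had 861, 807 and 759 CPM without DOX and 823, 986 and 913 CPM with DOX. The groups overlapped, since DOX-positive replicate 1 lay below DOX-negative replicate 1. The log2 fold change was 0.16 (SE 0.085, 95% interval -0.020 to 0.35, adjusted p = 0.29). TPM1 (chr15:63042747-63071915) had 46.4, 43.4 and 44.2 CPM without DOX and 47.2, 47.8 and 51.1 CPM with DOX. Its groups were separate, but by less than 1 CPM. The log2 fold change was 0.13 (95% interval -0.039 to 0.29, adjusted p = 0.37).

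The largest log2 fold changes among the 10 genes were those of MYL9, ACTA2 and CNN1, with means of 412, 31.8 and 10.5 counts. Not all genes of low count were alike in this, since TAGLN (145 counts) and TPM2 (159.3 counts) were at -0.16 and 0.032. MYL9 (chr20:36541519-36551447) had 6.04, 5.56 and 4.26 CPM without DOX and 6.55, 7.18 and 8.80 CPM with DOX. DOX-positive replicate 3 was the highest and DOX-negative replicate 3 the lowest library. The log2 fold change was 0.50 (SE 0.15, adjusted p = 0.076), and MYL9 was called with DESeq2 (0.498, adjusted p = 0.032) and with no count filter (0.50, adjusted p = 0.042), with adjusted p between 0.032 and 1 across alternatives.

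ACTA2 (chr10:88935074-88991337) had 24, 23 and 14 counts without DOX and 51, 33 and 46 counts with DOX. In CPM these were 0.376, 0.372 and 0.294 against 0.675, 0.600 and 0.624, so that all DOX-positive libraries were above all DOX-negative libraries. The log2 fold change was 0.85 (SE 0.24, adjusted p = 0.066), and ACTA2 was not called in any of the 15 alternatives that gave it a value. Exact Poisson 95% intervals, which cover counting error only, overlapped between the nearest libraries, at 15.4 to 35.7 for the 24 counts of DOX-negative replicate 1 and 22.7 to 46.3 for the 33 counts of DOX-positive replicate 2. ACTA2 overlaps ACTA2-AS1 (mean 22.8 counts) and FAS (mean 119.2 counts), which limits how its few counts can be assigned.

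CNN1 (chr19:11538851-11550323) had 6, 5 and 6 counts without DOX and 16, 13 and 17 counts with DOX. The groups did not overlap in CPM, at 0.094, 0.081 and 0.126 against 0.212, 0.236 and 0.231. The log2 fold change was 1.18 (SE 0.385, adjusted p = 0.10). Because none of the DOX-negative libraries reached the 0.16 CPM at which the filter was set, CNN1 entered the test only through the group where it was high.

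The remaining targets were measured without a separation of the groups. TAGLN (chr11:117199294-117207465) had 2.66, 2.12 and 2.58 CPM without DOX and 2.30, 2.29 and 1.98 CPM with DOX. The groups overlapped, and the log2 fold change was -0.16 (SE 0.15, 95% interval -0.49 to 0.16, adjusted p = 0.58). TAGLN overlaps PCSK7, which had a mean of 1831 counts against 145 for TAGLN. TPM2 (chr9:35681993-35690056) had 2.55, 2.49 and 2.46 CPM without DOX and 2.58, 2.58 and 2.51 CPM with DOX. Its libraries lay close together, with a log2 fold change of 0.032 (95% interval -0.25 to 0.31, adjusted p = 0.92).

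In the TPM values as deposited, the groups were separate for ACTA2 and CNN1 and overlapped for the other members. SRF was at 7.41, 7.38 and 5.71 TPM without DOX and 10.1, 7.38 and 8.79 TPM with DOX, so that DOX-positive replicate 2 fell among the DOX-negative libraries. The noncoding RN7SK alone took 21.2% to 27.1% of the deposited TPM total, and protein-coding genes together took 20.4%, 21.8% and 16.1% without DOX and 23.9%, 16.6% and 18.7% with DOX. When TPM was rescaled over 18821 protein-coding genes, a step chosen after the data were seen, SRF was at 36.3, 33.9 and 35.5 without DOX and 42.3, 44.5 and 46.9 with DOX. In these rescaled values the same 7 genes as in CPM had separate groups, CNN1 among them. The share of all genes with separate groups is not given here for TPM. In CPM it was 14.8% above and 13.3% below. SRF was called by limma-trend on the rescaled values (0.33, adjusted p = 0.043), where 382 of 12651 genes were called, 241 of them higher.

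To place the SRF targets in their pathway, 4 lists of related genes were read from the same fit. The lists held the SRF cofactors with regulators of actin, the paralogs of the 10 genes, other actin cytoskeleton targets of SRF, and immediate early targets of SRF. Like the 10 genes, they were chosen with earlier results of these data known.

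**Figure D2:**
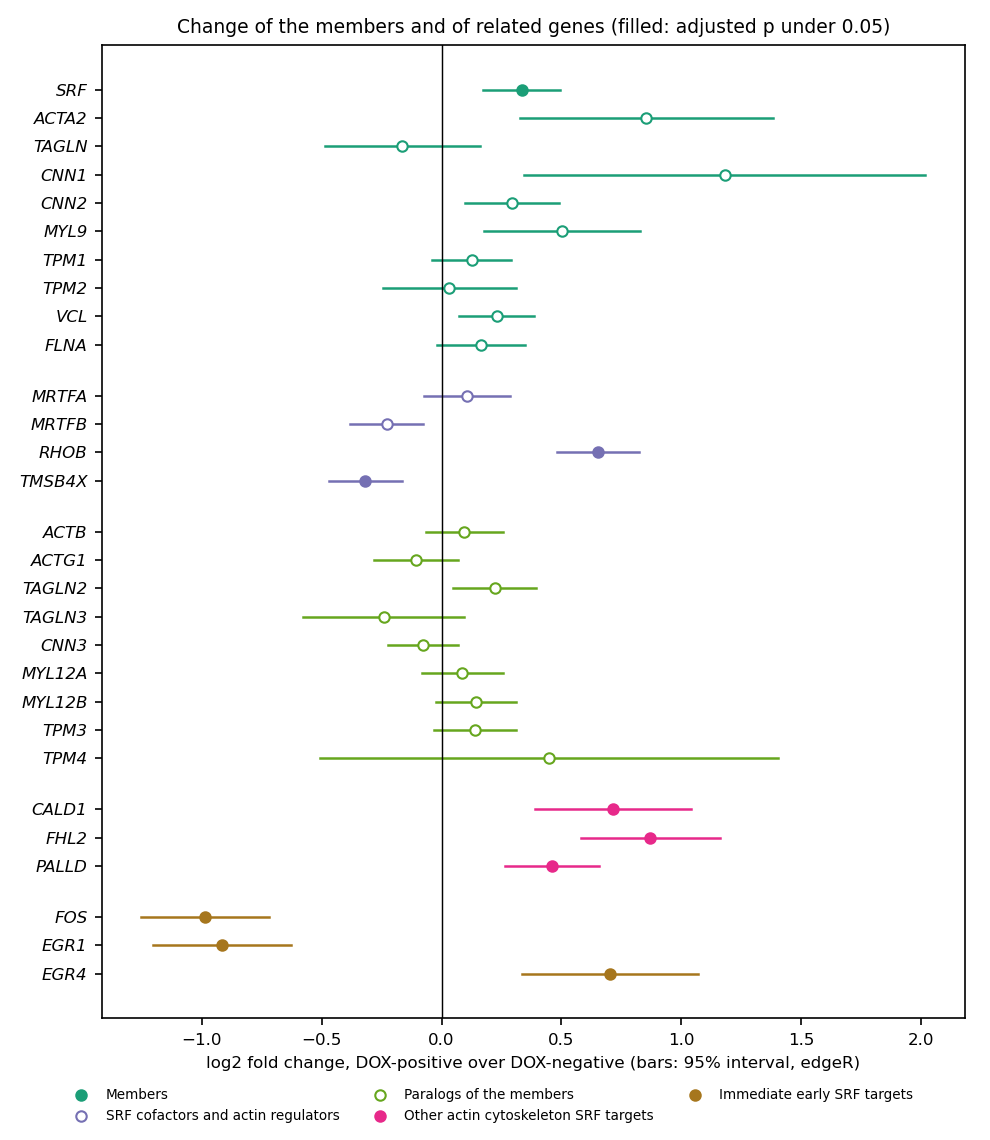
Log2 fold change (x axis, DOX-positive over DOX-negative, n = 3 libraries each) of the 10 members and of the related genes named in the text, by list (colors). Bars are 95% intervals from edgeR, and filled points have an adjusted p under 0.05. SRF, RHOB, CALD1, FHL2, PALLD and EGR4 lie above 0 and TMSB4X, FOS and EGR1 below it among the filled points.

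Among the 23 tested cofactors and regulators of 25, 1 was called higher and 1 lower (4.35% each, beside 2.91% and 1.96% of all tested genes), with a median log2 fold change of 0.027 (13 above 0 and 10 below). RHOB, a small GTPase whose transcript is itself an early response product, had 51.7, 53.2 and 55.3 CPM without DOX and 77.1, 84.3 and 90.3 CPM with DOX. Every DOX-positive library was far above the DOX-negative range, with a log2 fold change at 0.65 (SE 0.079, adjusted p = 0.0024), and the call held without any 1 library. TMSB4X encodes thymosin beta 4, which binds and sequesters actin monomers. It had 643, 670 and 658 CPM without DOX and 527, 547 and 505 CPM with DOX, and fell by 0.32 on the log2 scale (SE 0.070, adjusted p = 0.026). The fall was between -0.345 and -0.29 in all alternatives, but the call was lost without any of the DOX-negative replicates (adjusted p = 0.059, 0.14 and 0.10 for replicates 1, 2 and 3) and without DOX-positive replicate 1 (0.052) or replicate 3 (0.081).

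The SRF partners themselves were not called. MRTFA (listed under its older symbol MKL1) had 28.6, 27.7 and 27.7 CPM without DOX and 28.9, 32.4 and 29.1 CPM with DOX, so that its log2 fold change was 0.11 (adjusted p = 0.51). MRTFB (MKL2) was at 174, 177 and 172 CPM against 154, 139 and 152 CPM, with all DOX-positive libraries lower and a log2 fold change of -0.23 (adjusted p = 0.083). MRTFB passed with DESeq2 (adjusted p = 0.048, in a range of 0.048 to 1). MYOCD, the partner of SRF in heart and smooth muscle, had 0 counts in all 6 libraries. The ternary complex factors were at 0.19 for ELK1 (adjusted p = 0.18), -0.12 for ELK3 (0.67) and -0.12 for ELK4 (0.50).

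None of the 13 tested paralogs of 15 was called by edgeR, beside 2.91% of all tested genes called higher and 1.96% lower. An unadjusted p under 0.05 was found for 2 (15.4%), beside 21.1% of all tested genes. DESeq2 also called 0 paralogs, beside 1355 of 16078 genes. The median log2 fold change of the 13 paralogs was 0.094. The cytoplasmic actins, which form the bulk of the actin in nonmuscle cells, were at a log2 fold change of 0.094 for ACTB (adjusted p = 0.51) and -0.11 for ACTG1 (adjusted p = 0.49), with means of 973 and 683 TPM without DOX. Of the transgelins, TAGLN2 was 111.9 TPM without DOX, against 0.312 TPM for TAGLN, and its log2 fold change was 0.22 (adjusted p = 0.14), whereas the neuronal TAGLN3 was at -0.24 (adjusted p = 0.40). CNN3, the third calponin, was at -0.075 (adjusted p = 0.57). TPM3 (0.14, adjusted p = 0.34), MYL12A (0.086, adjusted p = 0.58) and MYL12B (0.14, adjusted p = 0.32) also missed the threshold. TPM4 was counted sparsely, with a mean of 30.8 counts, and the 95% interval of its log2 fold change, -0.51 to 1.40, included 0.

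Of the 26 other actin cytoskeleton targets of SRF, 3 were called higher (11.5%, beside 2.91% of all tested genes) and 0 lower (beside 1.96%), with a median log2 fold change of 0.12 (20 above 0 and 6 below). FHL2, a LIM domain protein that binds SRF and is also its target, had 7.50, 5.82 and 7.14 CPM without DOX and 10.9, 11.8 and 14.6 CPM with DOX. All DOX-positive libraries exceeded the DOX-negative range, with a log2 fold change at 0.87 (SE 0.13, adjusted p = 0.0063). CALD1 (caldesmon, which restrains actomyosin) had 4.30, 3.22 and 3.21 CPM against 5.00, 6.33 and 6.38 CPM, with a log2 fold change at 0.72 (SE 0.15, adjusted p = 0.022). PALLD (palladin, an organizer of actin bundles) had 80.7, 71.4 and 74.2 CPM against 96.4, 97.9 and 117 CPM, with a log2 fold change at 0.46 (SE 0.090, adjusted p = 0.017). Left out, DOX-negative replicate 3 ended all 3 calls (0.90, 0.64 and 0.44, with adjusted p = 0.057, 0.13 and 0.11), DOX-negative replicate 2 those of CALD1 (0.64, adjusted p = 0.11) and PALLD (0.42, adjusted p = 0.096), and DOX-positive replicate 3 that of CALD1 (0.65, adjusted p = 0.056). The range of adjusted p over the alternatives was 4.4e-07 to 0.47 for FHL2, 0.00098 to 0.43 for CALD1 and 0.00038 to 1 for PALLD.

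The immediate early targets went both ways. Of the 11 genes, 1 was called higher (9.09%, beside 2.91% of all tested genes) and 2 lower (18.2%, beside 1.96%), and the median log2 fold change was -0.16 (5 above 0 and 6 below). FOS, a subunit of AP-1, had 93.3, 122 and 85.4 CPM without DOX and 48.0, 56.1 and 48.0 CPM with DOX. Its highest DOX-positive library was well under its lowest DOX-negative one, and FOS fell by 0.99 on the log2 scale (SE 0.12, adjusted p = 0.0024), a call that held without any 1 library. EGR1, a zinc finger factor with SRF boxes in its promoter, had 171, 207 and 132 CPM without DOX and 87.7, 89.2 and 93.5 CPM with DOX. Its DOX-negative libraries were spread widely and its DOX-positive libraries lay close together, with a log2 fold change at -0.92 (SE 0.13, adjusted p = 0.0058). EGR1 lost the call without DOX-positive replicate 2 (-0.91, adjusted p = 0.084). EGR4, at 1.00, 1.15 and 1.09 CPM against 1.56, 1.82 and 1.899 CPM, rose by 0.70 (SE 0.17, adjusted p = 0.036) and lost its call without any 1 library other than DOX-positive replicate 1, with values from 0.64 to 0.75 and adjusted p from 0.066 to 0.13. FOSB was at -0.40 (adjusted p = 0.064) and JUNB at 0.28 (adjusted p = 0.16). Whether the cytoskeletal and the immediate early lists differ from each other was not tested.

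**Figure D3:**
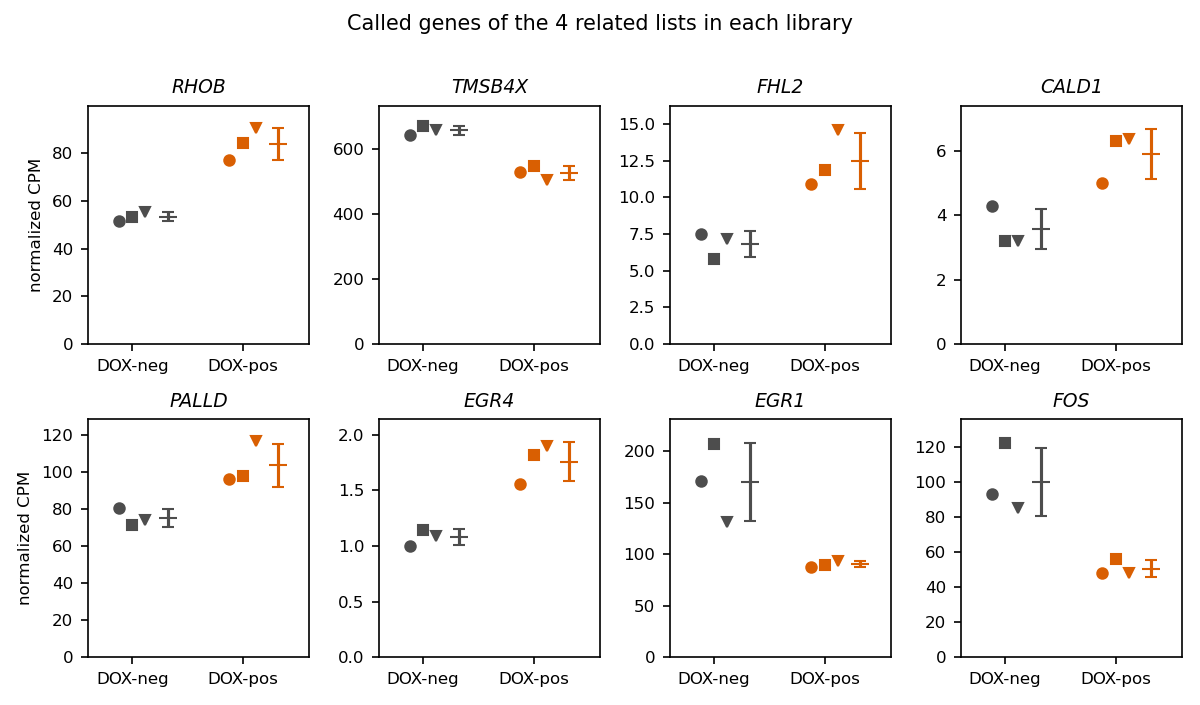
Normalized counts-per-million values (CPM, y axis from 0) of the 8 called genes of the related lists in each DOX-negative (gray) and DOX-positive (orange) library. Circles, squares and triangles are replicates 1, 2 and 3, and bars show the mean ± SD (n = 3). RHOB, FHL2, CALD1, PALLD and EGR4 are higher and TMSB4X, EGR1 and FOS lower in every DOX-positive library.

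**Figure D4:**
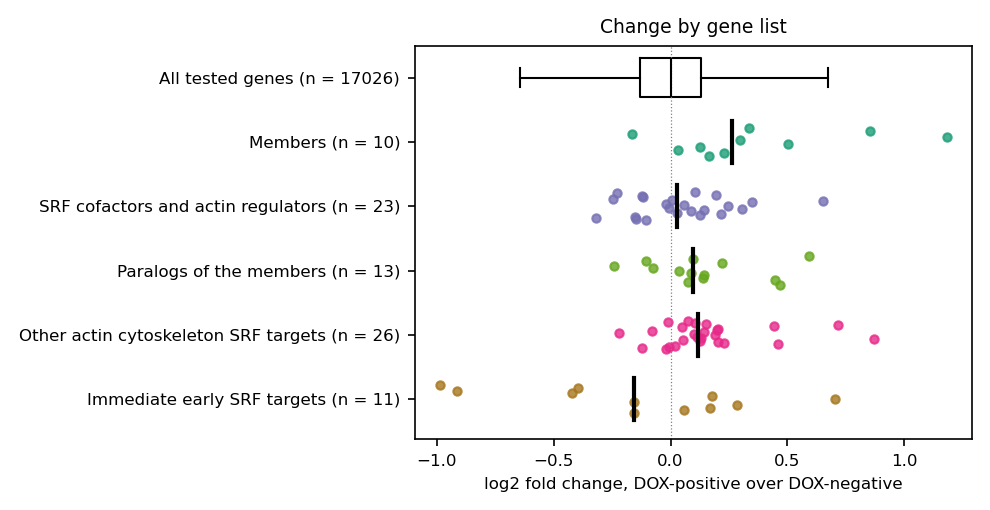
Log2 fold change (x axis, DOX-positive over DOX-negative) of each tested gene (points) of the 10 members and the 4 related lists, with the median as a black line. The box for all 17026 tested genes spans the quartiles, and its whiskers hold the central 95% of genes. The medians are 0.26 for all 10 members with CNN1 included, 0.027, 0.094, 0.12 and -0.16 for the lists in the order drawn, and 0.00034 for all tested genes.

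Genes with a profile like that of the 10 targets were sought over the 6 libraries. The mean of the 10 genes, each centered on its average log2 CPM, was -0.093, -0.19 and -0.22 in the DOX-negative libraries and 0.11, 0.19 and 0.20 in the DOX-positive libraries. Among the 14579 other genes averaging 50 counts or more, those with the highest Pearson r to this profile were ANXA2 (r = 0.9996), DUSP9 (0.9989), DDIT3 (0.998), LAMB3 (0.998) and OAF (0.997). These values are a description over 6 libraries that fall into 2 groups. The ranking rested on CNN1, which had passed the count filter only through its DOX-positive libraries. With the profile of the other 9 genes, a step added after the data were seen, these 5 genes ranked between 30 and 89 (r from 0.984 to 0.990). The first 5 were then UNC5B (r = 0.998), EGFR (0.997), NGFR (0.997), LOC101928100 (0.997) and CDH1 (0.997). A high r did not always go with a call by edgeR. DDIT3 (log2 fold change 0.25, adjusted p = 0.07), EGFR (0.20, adjusted p = 0.14) and CDH1 (0.11, adjusted p = 0.37) were not called. The other genes of both rankings were called higher.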

How the data were processed

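RNA-seq was performed on triplicate cultures of H660 cells, and groups and replicate numbers were taken from the sample titles. The authors deposited a table of raw counts by gene symbol and a table of TPM. Per the submitters' processing notes, both rest on STAR alignment to GRCh38 (hg38). The study's methods name DESeq2. Versions, the counting tool, its strand setting and the annotation are not given in the sources used here. Counts were tested with edgeR 4.0.16 in R 4.3.3 (filterByExpr, TMM, robust glmQLFit and glmQLFTest, no covariate), with Benjamini-Hochberg adjustment over all 17026 genes tested. Each SE is the fold change over the root of F, and CPM were scaled by TMM factors. The code was tested on simulated data. The members and all gene lists were chosen with earlier results of these data known. Named genes were the members, called genes of each list (up to 4 per direction), the SRF partners and main paralogs, and the 5 genes most alike in profile. MRTFA and MRTFB were matched through older symbols, and 1 paralog covered by this rule is not reported here. The ternary complex factors, single markers, FOSB, JUNB and the 5 genes most alike in profile without CNN1 were named after their values were seen. Alternatives were other scalings, count filters and tools (DESeq2 1.42.0, limma 3.58.1 with voom or on log2 TPM with pseudocounts of 1 and 0.1), a replicate block and leaving out each library. Library pairs of a group differed by far more than counting noise (chi-square per degree of freedom 16.8 to 103). With depths of 47620696 to 74061121 counts, a count of 3 corresponds to at most 0.063 CPM. Promoters and gene spans came from RefSeq tables (GRCh38.p14).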

Additional observations from a re-analysis of the deposited data

How the results depend on the processing

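Against 829 genes called with counts, DESeq2 called 1355. On deposited TPM at a mean of 1 or more, limma-trend called 30 genes with a pseudocount of 1 and 35 with 0.1, and without that filter 0 (1248 at an unadjusted p under 0.05). On TPM rescaled to protein-coding genes, chosen after seeing the data, it called 382. In those 3 fits of TPM as deposited, 0 members and 0 cofactors and regulators in either direction were called. Likewise, 0 other actin cytoskeleton targets and 0 immediate early targets in either direction were called. The fits with the filter did not test TPM2, TAGLN, ACTA2, CNN1, CALD1 and EGR4, whose means were under 1 TPM. Over all genes, 678 of 22564 tested were called higher with no count filter and 753 of 16078 with DESeq2. These numbers were 574 of 17026 with the replicate block, 389 of 17026 with limma-voom and 241 of 12651 on rescaled TPM. Of the members, 2 were called higher with no count filter and 3 with DESeq2. Of the cofactors and regulators, 2 were called higher with no count filter, 2 with the replicate block, and with DESeq2 4 were called higher and 2 lower. On rescaled TPM, 1 other actin cytoskeleton target was called higher, and with limma-voom 0 immediate early targets were called higher. For these changes the cause was not tested.

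Leaving out 1 library gave 58 to 1035 called genes, the fewest without DOX-negative replicate 3 and the most without DOX-positive replicate 1. Of these, 33 to 615 were called higher, with 17191 to 17258 genes tested. It also gave 0 to 2 members called higher, 1 to 2 cofactors and regulators higher and 0 to 1 lower, 0 to 1 paralogs higher, 0 to 4 other actin cytoskeleton targets higher and 0 to 1 lower, and 0 to 1 immediate early targets higher. These fits hold fewer samples.

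With the replicate block 998 genes were called, 1 member among them. The sources do not say whether the replicate numbers pair cultures. Same-numbered libraries deviated from their group means with correlations of -0.34, 0.011 and -0.12 over 17026 genes. With 3 libraries per group, these values cannot decide whether cultures were paired. None of the members, MUC1 and listed genes named by rule changed sign in any alternative that gave it a value. Called genes were 59.8% higher with counts and 43.3% and 45.7% higher in the filtered TPM fits. The median of all genes stayed within 0.1 of 0 under other scalings. Of the values of named genes with all 6 libraries, 351 kept their side of the threshold, 27 lost and 4 gained a call, and with 1 library left out these numbers were 164, 21 and 1. MUC1 kept its call in 18 of 19 alternatives. DOX in cells without the MUC1 shRNA was not analysed here, and ACTA2 and CNN1 rest on few counts.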

Other observations

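Promoters with a CArG box were also looked at across all genes, as a description without a test. Of the 12026 tested genes with a RefSeq promoter, 191 held an exact CArG box in a window. Of these 191, 14 were called higher with DOX (7.33%) and 6 lower (3.14%), beside 2.98% higher and 1.89% lower among all tested genes with a promoter. Their median log2 fold change was 0.029, beside 0.0063. The genes called higher include SRF and FHL2, and the genes called lower include EGR1.

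Further genes of this set were named after their values were seen. TES, which encodes the focal adhesion protein testin, averaged 54.2 CPM in DOX-negative and 69.1 CPM in DOX-positive cells (log2 fold change 0.35, SE 0.071, adjusted p = 0.020). AKAP12, a scaffold protein that binds protein kinase A, went from 4.70 to 10.9 CPM (1.21, SE 0.15, adjusted p = 0.0024). ITGB6, the beta subunit of an epithelial integrin, had 5.05 and 7.43 CPM (0.56, SE 0.11, adjusted p = 0.015). The other genes called higher, besides SRF and FHL2, were GBP1 (1.12), NR2F1 (1.03), AQP3 (0.85), CYP1A1 (0.83) and TCF7 (0.70). They also included PLAC8 (0.58), NCOA7 (0.54), YBX3 (0.39) and MKNK2 (0.37). The box is a match of letters in these windows, and binding of SRF was not measured. Besides EGR1, the genes called lower were ST6GAL2 (-0.40, adjusted p = 0.014), NKX2-1 (-0.41, adjusted p = 0.049), GPC2 (-0.46, adjusted p = 0.045), SFTA3 (-0.48, adjusted p = 0.020) and FRMPD2 (-0.56, adjusted p = 0.022).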
